A study of Mus musculus with 54 samples.

Results

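Lat-/- CD4+ T cells that had been stimulated through CD3 and CD28 for 20 h were compared with Lat-/- CD4+ T cells stimulated for 4 h, by RNA sequencing of 3 libraries at each time. These 6 libraries were chosen by their genotype and time labels out of 54 in the whole series. They belong to an experiment of 18 libraries in which Lat-/- cells (human diphtheria toxin receptor-negative, hDTR-) and WT cells (hDTR+) were sorted as naive CD4+ T cells from the pooled lymph nodes and spleens of Lat fl-dtr maT-Cre mice, and were taken at 0, 4 and 20 h. Both populations therefore carry the floxed allele and the Cre transgene, and they differ in whether the allele was deleted. The mice were of C57BL/6 background and 8 to 10 wk old, and the promoter that drives the Cre is not given in the sources used here. The 4 h and 20 h cultures were kept on plates coated with anti-CD3 (3 µg/ml) with anti-CD28 also given (1 µg/ml), and the 0 h cells were left unstimulated. The labels name no culture kept without stimulation for 4 or 20 h, so the time in culture and the time of stimulation cannot be told apart. Within a group the labels give 3 replicates. The p-values rest on the spread between replicates, which was estimated over all groups of the 18 libraries and drawn toward that of other genes.

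LAT is the membrane adaptor that ZAP-70 phosphorylates after the T cell receptor (TCR) is engaged. Phosphorylated LAT assembles phospholipase C gamma 1, GRB2 with SOS1, and SLP-76, and these complexes feed calcium, Ras-ERK and protein kinase C signals. Those signals switch on immediate early genes within minutes, NF-kappaB and NFAT target genes within hours, and the program of cell growth and division within a day. CD28 also signals through routes that do not need LAT. Many immediate early genes encode transcription factors, or phosphatases and inhibitors that end the signal, and their transcripts are short lived. The interval between 4 and 20 h therefore separates early transcripts, made while signalling starts, from late ones, made when WT cells enter the cell cycle.

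Lat itself (chr7:126363824-126369570, minus strand of GRCm38), the deleted gene, stood at 6.79, 5.69 and 11.3 CPM at 4 h and 11.7, 9.91 and 17.2 CPM at 20 h in the Lat-/- libraries. In WT libraries it stood at 314, 351 and 262 CPM at 4 h and 97.3, 105 and 92.2 CPM at 20 h, where CPM is counts per 1e6 of the library's total after its TMM scaling factor. Every Lat-/- library was thus far below every WT library of the same time, and Lat-/- 20 h replicate 3 held the most Lat reads of the 6. Lat did not pass the test between 4 and 20 h in Lat-/- cells (log2 fold change 0.70 ± 0.25, adjusted p = 0.1). The 6 libraries held between 17784644 and 27712553 counts (median 21635423), and 3 counts, the limit set by a count of 0, correspond to 0.111 to 0.176 CPM in these 6 libraries. The 8 CD4+ T cell markers summed to between 5713 and 6342 CPM at 4 h and between 5446 and 6493 CPM at 20 h, and none was called. Of the 6 CD8+ T cell and NK cell markers, the 5 gamma delta T cell markers and the 5 red cell markers none was called either. Some libraries stood apart in the same way for many genes. Lat-/- 4 h replicate 3 was low for heat shock genes, and Lat-/- 20 h replicate 3 was the highest, and replicate 2 the lowest, of its group for many activation and cell division genes.

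Of 27780 genes with at least 1 read in the 18 libraries, 475 were higher (1.71%) and 519 were lower (1.87%) at 20 h than at 4 h in Lat-/- cells. Calls needed a change of more than 2-fold with an adjusted p below 0.05 in edgeR's quasi-likelihood test, p-values being adjusted by the Benjamini-Hochberg method over all 27780 genes. Fold changes are given on the log2 scale as the fitted value ± its standard error, with 3 libraries per group throughout. Without Lat-/- 4 h replicate 1 the lower genes numbered 329, and without Lat-/- 20 h replicate 2 they numbered 338. The lower genes moved further. Their median log2 fold change was -2.05 against 1.42 for the higher genes, 265 of them and 108 of the higher genes changed more than 4-fold, and 89 and 27 changed more than 16-fold. For 450 of the 475 higher and 465 of the 519 lower genes the CPM of the 4 h and 20 h libraries did not overlap, as was also true of 5320 of all 27780 genes. Protein-coding genes made up 388 of the higher and 399 of the lower genes. The higher protein-coding genes lay over long stretches of genome: 29.6% of them spanned more than 100 kb from first to last annotated base, against 12.8% of the lower ones and 11.6% of the 11410 protein-coding genes with enough counts to be kept by edgeR's expression filter. Their median span was 37.7 kb, that of the lower genes 19.0 kb, and that of the 11410 genes 23.5 kb. For comparison, the same interval in WT cells gave 2381 higher genes (8.57%) and 2499 lower genes (9.00%), or 2921 and 1953 when libraries were scaled by their totals alone.

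Transcription factors of the immediate early response were among the genes that fell furthest in Lat-/- cells. Of 26 immediate early genes 15 were lower at 20 h and none was higher, with a median log2 fold change of -1.65 against 0 over all genes tested. The nuclear receptor gene Nr4a1 (chr15:101254269-101274795, plus strand), widely used to read out TCR signal strength, stood at 1259, 1002 and 1336 CPM at 4 h and 41.1, 23.0 and 95.2 CPM at 20 h. All 4 h libraries lay far above all 20 h libraries, a 22.6-fold fall (-4.50 ± 0.68, adjusted p = 0.00084). Its paralogs fell alongside it. Nr4a3 went from 598, 478 and 568 CPM at 4 h to 16.7, 8.09 and 30.0 CPM at 20 h, and Nr4a2 from 90.5, 70.4 and 103 CPM at 4 h to 2.07, 1.04 and 5.76 CPM at 20 h, with log2 fold changes of -4.91 ± 0.39 and -4.90 ± 0.44. Within each of the 3 genes the 20 h libraries kept the order replicate 3, replicate 1, replicate 2 from highest to lowest. For Nr4a3 the unstimulated Lat-/- cells had been at 3.16, 2.47 and 2.40 CPM, so every 20 h library was still above every 0 h library.

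The AP-1 family, the dimers of FOS and JUN proteins that act with NFAT on cytokine genes, had 4 of its 7 genes called (Fosl2, Fosb, Fos and Jun), all lower. Fosl2 stood at 325, 274 and 331 CPM at 4 h and 18.5, 17.5 and 18.9 CPM at 20 h, with groups far apart (-4.08 ± 0.28, adjusted p = 2.6e-07). Fosb fell from 29.9, 23.0 and 67.9 CPM to 0.506, 0.186 and 1.05 CPM and Fos from 32.5, 26.3 and 78.6 CPM to 1.11, 0.965 and 2.69 CPM, and at 0 h Fos had stood at 394, 190.4 and 390.2 CPM. Jun fell from 384, 164 and 93.7 CPM to 15.0, 10.4 and 23.2 CPM (adjusted p = 0.0012, or 0.0538 with the 6 Lat-/- libraries fitted alone). Atf3, a related factor induced by cell stress, fell from 14.5, 12.7 and 17.5 CPM to 0.405, 0.0371 and 0.715 CPM (-5.31 ± 0.36, adjusted p = 6.4e-16). Junb, which had stood at 1665, 741 and 2420.0 CPM at 0 h, did not pass the test (-1.25 ± 0.37, adjusted p = 0.057), nor did Fosl1 (-0.21 ± 0.70) and Jund, for which almost no reads were counted (0, 0 and 0 CPM at 4 h and 0.0506, 0 and 0 CPM at 20 h).

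Of the 4 EGR zinc finger factors, which ERK induces through serum response factor, 3 fell and Egr4 did not pass the test (-0.21 ± 1.02). Egr3 stood at 185, 132 and 225 CPM at 4 h and 17.7, 8.94 and 29.5 CPM at 20 h, and 0 h libraries had held 1.33, 0.979 and 1.50 CPM. Each 20 h library was therefore lower than each 4 h library and higher than each 0 h library. Egr1 went from 337, 239 and 292 CPM to 42.5, 32.9 and 77.1 CPM (-2.51 ± 0.39, adjusted p = 0.0011) and Egr2 from 2.81, 1.53 and 3.12 CPM to 0.152, 0.0371 and 0.757 CPM (-2.99 ± 0.45). Myc, which drives growth in activated T cells, stood at 126, 116 and 175 CPM at 4 h and 76.9, 81.6 and 114 CPM at 20 h, a change of -0.61 ± 0.14 that was under the fold threshold (adjusted p = 0.0022). In WT cells 20 of the 26 genes were lower at 20 h. The change differed between the genotypes for 5 of the 26, of which 4 (Klf6, Ier5, Btg2 and Zfp36) had the higher value in Lat-/- cells and 1 (Ier3) the lower.

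**Figure D1:**
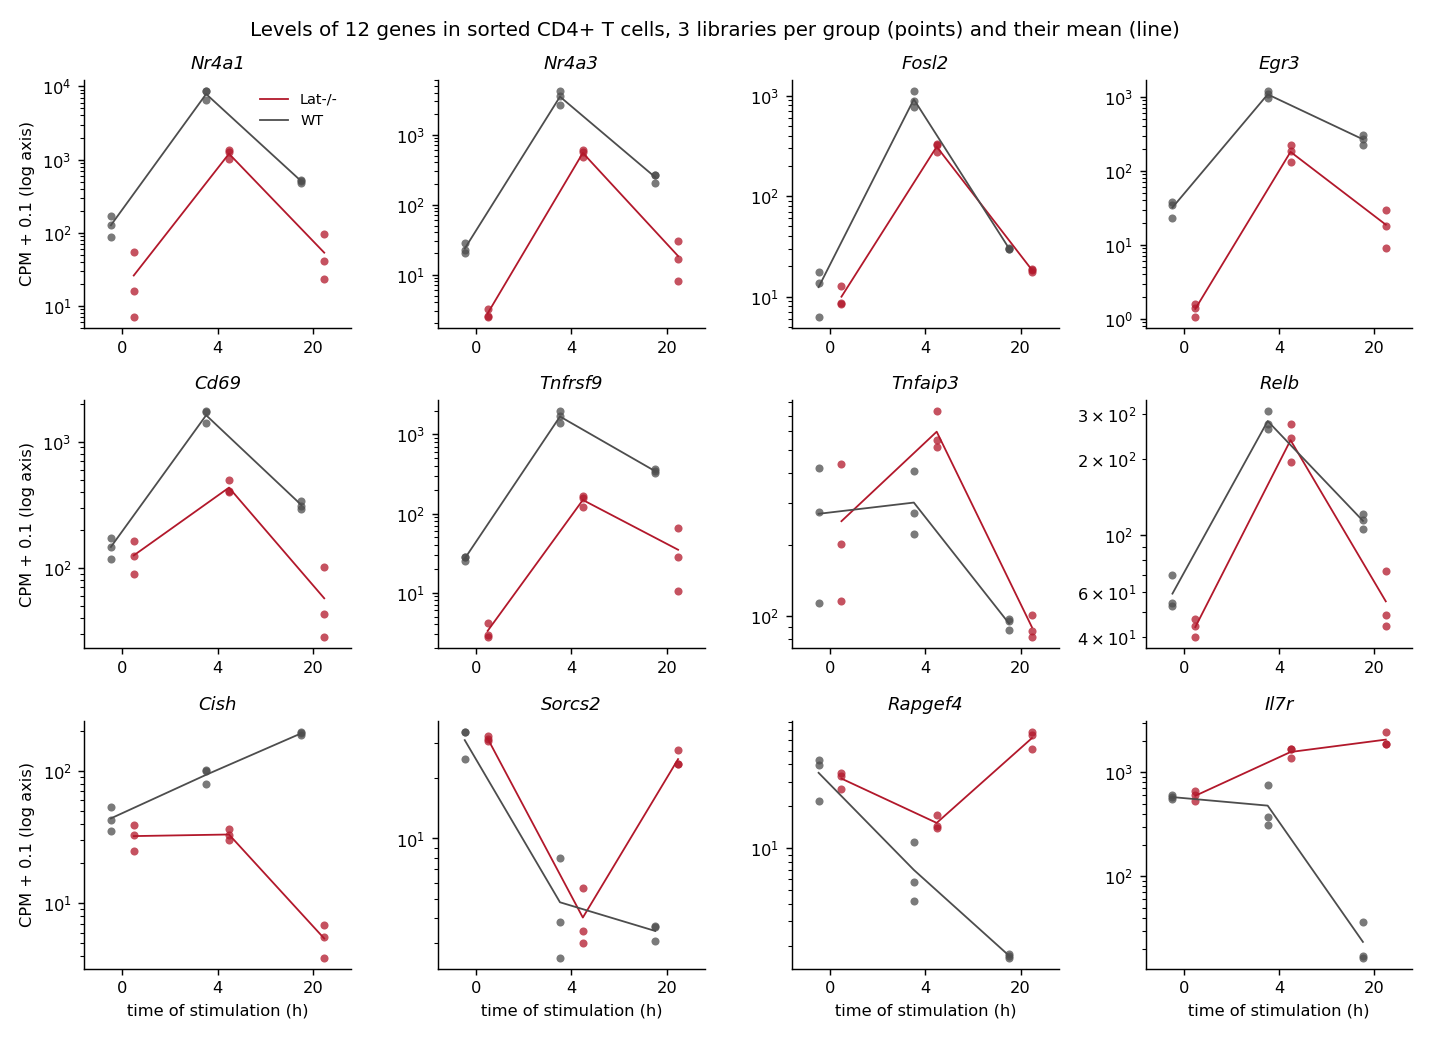
Levels of 12 genes at 0, 4 and 20 h in Lat-/- (red) and WT (grey) cells, as CPM plus 0.1 on a log axis, with 1 point per library and a line through the mean of the 3 libraries. In Lat-/- cells Nr4a1, Nr4a3, Fosl2, Egr3, Cd69, Tnfrsf9, Tnfaip3, Relb and Cish fell from 4 h to 20 h, Sorcs2 and Rapgef4 rose, and Il7r was not called.

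Inhibitors of the same pathway fell too. Of 11 ERK feedback genes 4 were lower and none was higher (6 lower in WT cells). Dusp5, a nuclear phosphatase of ERK, went from 131, 154 and 102 CPM at 4 h to 20.0, 27.9 and 30.2 CPM at 20 h (-2.30 ± 0.22, adjusted p = 1.6e-07), with no overlap. Dusp10, a phosphatase of p38 and JNK, went from 260.1, 302 and 244 CPM at 4 h to 74.9, 86.8 and 83.9 CPM at 20 h (-1.72 ± 0.15, adjusted p = 1.7e-15). Spry4, a Sprouty inhibitor of Ras signalling, fell from 2.15, 2.29 and 1.66 CPM to 0.152, 0.148 and 0.463 CPM. Dusp6 was called (-1.27 ± 0.34, adjusted p = 0.037), a call lost without Lat-/- 20 h replicates 1 or 2 or Lat-/- 4 h replicates 1 or 3 (adjusted p up to 0.126, log2 change -0.89). A further pair of phosphatase genes carried the full cAMP response element TGACGTCA, the site that CREB and ATF proteins bind, in the 300 bases around their start, 250 before it and 50 after it. Dusp8 fell from 23.2, 10.3 and 3.33 CPM to 0.0506, 0.223 and 0.294 CPM (-5.94 ± 0.83, adjusted p = 0.0003), with the 4 h value lowest in replicate 3, and with an adjusted p of 0.0548 in a fit to the 6 Lat-/- libraries alone. Dusp1 fell from 74.5, 55.2 and 74.3 CPM to 18.6, 19.4 and 21.2 CPM (-1.78 ± 0.40, adjusted p = 0.014), a call lost without Lat-/- 20 h replicates 1 or 2 or Lat-/- 4 h replicate 1 (adjusted p up to 0.0554). Their promoter stretches are shown because both genes fell and both hold the same full element. They are from the RefSeq annotation of GRCm38.p6, on the minus strand, with the element in capitals, at chr7:142095300-142095387 for Dusp8 (the nearer of 2 copies) and chr17:26508568-26508655 for Dusp1.
Dusp8: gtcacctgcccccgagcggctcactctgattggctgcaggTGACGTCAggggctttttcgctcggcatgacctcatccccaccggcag
Dusp1: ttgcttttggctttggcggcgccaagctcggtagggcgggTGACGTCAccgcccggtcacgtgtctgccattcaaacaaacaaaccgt
The element, which reads the same on both strands, was found in 5.90% of the 390 promoter windows of lower genes, 1.31% of the 382 windows of higher genes, 3.16% of the 11613 windows of expressed protein-coding genes and 1.79% of all 32851 windows. None of the ERK feedback genes with a window held it. In the other gene lists Nfkbid and Plk2, both called lower at 20 h, also held it. So did Btg2, Zap70, Mcm5, Cenpe, Ndc80, Rpl13, Rpl18, Ldha, Elovl5 and Gzmc, which were not called. The search was made after the values had been seen and is a description of these windows.

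NF-kappaB genes formed the next group. This family of dimers is held in the cytoplasm by inhibitors of kappaB until kinases downstream of protein kinase C release it, and it induces its own subunits and inhibitors. Of 16 subunits and feedback genes 9 were lower and none was higher (median -1.18), and 8 were lower in WT cells. Tnfaip3, encoding the deubiquitinase A20 that ends the signal, stood at 552, 515 and 728 CPM at 4 h and 101, 81.8 and 86.9 CPM at 20 h (-2.73 ± 0.51, adjusted p = 0.0039). Relb, a subunit of the non-canonical dimer, stood at 241, 273 and 194 CPM at 4 h and 48.4, 44.0 and 72.7 CPM at 20 h (-2.10 ± 0.16, adjusted p = 8.3e-17). Nfkb2, its partner, stood at 308, 355 and 316 CPM at 4 h and 98.9, 58.3 and 107 CPM at 20 h (-1.89 ± 0.16, adjusted p = 7e-14). In each of the 3 genes the groups were separate, and the 20 h values of Relb and Nfkb2 had come to within 2-fold of those at 0 h (44.0, 39.9 and 47.0 CPM and 64.6, 66.7 and 55.4 CPM). Bcl3, an atypical inhibitor of kappaB that works in the nucleus, fell from 64.9, 60.9 and 52.9 CPM to 13.9, 6.35 and 14.3 CPM (-2.38 ± 0.21), below its 0 h values of 23.0, 25.5 and 30.5 CPM. In WT cells Bcl3 was not called (0.23 ± 0.20), and the change differed between the genotypes (-2.61 ± 0.28, adjusted p = 2.9e-09). Nfkbia (-1.21 ± 0.16), Nfkbib (-1.18 ± 0.15), Nfkbid (-2.05 ± 0.34), Rel (-1.18 ± 0.20) and Birc3 (-1.07 ± 0.14) were the other lower members, and Birc3 was just under the fold threshold without Lat-/- 4 h replicate 1. With the Lat-/- libraries fitted alone Nfkbid had an adjusted p of 0.0998.

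Of the 13 members with a RefSeq promoter window, 4 held on either strand GGG and TTTCC with 2 free bases between them, a core of the NF-kappaB site: Nfkb2, Nfkbia, Rel and Tnfaip3, all of them among the 9 lower members. Their promoter stretches are shown with the match in capitals, since they carry a site for the family they encode or inhibit. They lie in GRCm38.p6 at chr19:46304686-46304736 on the plus strand (Nfkb2, 1 of its alternative starts) and on the minus strand at chr12:55492648-55492716 (Nfkbia), chr11:23771011-23771100 (Rel) and chr10:19015411-19015462 (Tnfaip3).
Nfkb2: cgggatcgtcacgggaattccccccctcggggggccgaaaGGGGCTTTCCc
Nfkbia: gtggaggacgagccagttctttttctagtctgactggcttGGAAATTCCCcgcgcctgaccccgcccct
Rel: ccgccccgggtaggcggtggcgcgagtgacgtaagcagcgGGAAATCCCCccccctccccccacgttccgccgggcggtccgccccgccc
Tnfaip3: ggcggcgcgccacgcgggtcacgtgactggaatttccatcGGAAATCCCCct
Matches were present in 3.85% of windows of lower genes, 2.09% of those of higher genes, 1.68% of those of expressed protein-coding genes and 1.63% of all windows. In the other gene lists Dusp5 and Tnfrsf9, both lower at 20 h, also held one. So did Csf1, Il16, Ltb, Ifngr2, Il4ra, Gbp5, Birc5, Bbc3, Bcl2l1, Mcl1, Nop58 and Mvd, none of which was called.

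At the cell surface, 4 of 25 costimulatory and inhibitory receptor genes were lower and none was higher. Cd69, a lectin-like receptor that appears within hours of activation and keeps cells in the lymph node, stood at 497, 404 and 396 CPM at 4 h and 42.7, 28.1 and 101 CPM at 20 h. The groups were far apart, and the change was -2.92 ± 0.39 (adjusted p = 0.00031), although a fit to the 6 Lat-/- libraries alone gave an adjusted p of 0.0528. Its 20 h replicates 1 and 2 were below all 0 h libraries (88.7, 124 and 163 CPM). Tnfrsf9, encoding 4-1BB, went from 167, 119 and 159 CPM at 4 h to 28.5, 10.4 and 65.6 CPM at 20 h (-2.09 ± 0.45, adjusted p = 0.01, a call lost without Lat-/- 20 h replicate 1 (adjusted p 0.0537) and with the Lat-/- libraries alone, adjusted p 0.211), and all 20 h values remained above the 0 h values of 2.86, 2.66 and 4.07 CPM. Cd83 fell from 16.8, 8.57 and 37.2 CPM to 1.47, 1.15 and 3.78 CPM and Slamf1 from 102, 67.3 and 112 CPM to 19.1, 12.0 and 30.4 CPM, with adjusted p of 0.102 and 0.0513 in the fit to the Lat-/- libraries alone. In all 4 genes the 20 h library with the highest value was replicate 3. Without it 8 of the 25 genes were lower, and leaving out any other library gave 3 or 4. Of the same genes 1 was higher without Lat-/- 20 h replicate 2 and 2 without Lat-/- 4 h replicate 3. Cd44, the memory and activation marker, stood at 61.9, 48.1 and 64.4 CPM at 4 h and 26.2, 27.0 and 46.6 CPM at 20 h, a decrease under the fold threshold (-0.81 ± 0.18), whereas in WT cells it was higher at 20 h (1.35 ± 0.18), and this difference passed the test (-2.16 ± 0.25, adjusted p = 1.1e-08).

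Among 30 cytokine and chemokine genes 7 were lower and none was higher, against 13 lower and 2 higher in WT cells. Lif, a member of the interleukin 6 family, fell from 11.7, 8.22 and 24.3 CPM to 0.354, 0.186 and 0.799 CPM (-5.05 ± 0.53, adjusted p = 1.7e-05). In WT cells Lif stood at 26.8, 30.1 and 33.5 CPM at 4 h and 20.0, 24.3 and 13.6 CPM at 20 h and was not called, and the change differed (-4.41 ± 0.65, adjusted p = 0.00017). Il21, a helper cytokine for B cells, fell from 1.78, 1.64 and 5.57 CPM to 0.202, 0.111 and 0.0841 CPM, and Cxcl10, an interferon-induced chemokine, from 9.06, 2.17 and 7.44 CPM to 2.07, 0.520 and 1.51 CPM (adjusted p 0.148 with the Lat-/- libraries alone). Fasl, the ligand of the death receptor FAS, went from 48.7, 51.7 and 38.2 CPM at 4 h to 15.9, 17.5 and 14.9 CPM at 20 h (-1.52 ± 0.16), and Tgfb1 changed by -1.03 ± 0.13. Tnf (-2.24 ± 0.51) and Tnfsf11 (-2.25 ± 0.59) completed the 7. The call of Tnf was lost without Lat-/- 20 h replicate 1 or Lat-/- 4 h replicate 1 (adjusted p up to 0.0729) and that of Tnfsf11 without Lat-/- 20 h replicates 1 or 2 or Lat-/- 4 h replicates 1 or 3 (adjusted p up to 0.132). That of Tgfb1 was lost without Lat-/- 20 h replicates 1 or 2 or Lat-/- 4 h replicate 2 (log2 change -0.94 at the smallest). Without Lat-/- 20 h replicate 1, 4 of the 30 genes were lower. Il2, the T cell growth factor, was scarce in Lat-/- cells at both times (0.455, 0.528 and 1.66 CPM at 4 h and 1.92, 0.891 and 6.27 CPM at 20 h), and Ifng stood at 13.5, 1.94 and 5.77 CPM at 4 h and 2.63, 0.297 and 3.24 CPM at 20 h. Neither was called (adjusted p = 0.2 and adjusted p = 0.14), and their values varied by more than 3-fold within each time.

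Cytokine receptors and their feedback genes split. Il12rb2, the inducible chain of the interleukin 12 receptor, fell from 2.81, 1.06 and 3.23 CPM to 0.455, 0.0742 and 0.547 CPM (-2.80 ± 0.48) and Il18rap from 6.17, 4.70 and 5.15 CPM to 2.07, 1.22 and 1.98 CPM (-1.63 ± 0.30). Il12rb1, the other chain, rose from 0.372, 0.176 and 0.468 CPM to 1.26, 1.08 and 1.89 CPM (2.00 ± 0.49, adjusted p = 0.0028), and Il10ra, the ligand-binding chain of the interleukin 10 receptor, rose from 19.5, 15.8 and 23.4 CPM to 35.7, 46.8 and 46.1 CPM (1.13 ± 0.19, adjusted p = 2.4e-05). These were all the calls among 21 receptors. Of 13 feedback genes 1 was called. Cish, which STAT5 induces and which dampens interleukin 2 signalling, stood at 36.4, 32.5 and 30.1 CPM at 4 h and 5.41, 3.79 and 6.73 CPM at 20 h, and its groups did not overlap (-2.64 ± 0.19, adjusted p = 2.2e-16). All 20 h values were below the 0 h values of 24.6, 38.9 and 32.7 CPM. WT cells went the other way, with 101, 99.7 and 79.8 CPM at 4 h and 186, 197 and 194 CPM at 20 h (1.04 ± 0.16), and the difference was -3.69 ± 0.25 (adjusted p = 3.9e-18).

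Other genes among the steepest falls had roles outside these lists. Lmna, encoding the nuclear lamins A and C, went from 16.2, 18.2 and 14.7 CPM at 4 h to 0.657, 0.260 and 0.505 CPM at 20 h (-5.15 ± 0.31, adjusted p = 2.5e-23), and every 20 h library was below every 0 h library (12.1, 15.4 and 12.3 CPM). The change was smaller in WT cells (-2.47 ± 0.25), a difference of -2.68 ± 0.45 (adjusted p = 2.2e-06). Cd24a, a glycosylphosphatidylinositol-anchored surface protein, fell from 26.0, 17.4 and 27.0 CPM to 0.607, 0.408 and 1.85 CPM (-4.62 ± 0.28), and Ccr8, a chemokine receptor, from 52.8, 39.7 and 30.1 CPM to 4.50, 2.49 and 5.38 CPM (-3.33 ± 0.34). The p53 target and cell cycle inhibitor Cdkn1a fell from 9.60, 7.28 and 13.4 CPM to 1.57, 0.965 and 2.44 CPM and the BH3-only death gene Pmaip1 from 8.86, 4.58 and 9.88 CPM to 1.26, 0.965 and 1.98 CPM, 2 of the 4 lower members among 18 p53 targets. Among the most abundant lower genes, P2ry10, a receptor for lysophosphatidylserine, stood at 815, 852 and 944 CPM at 4 h and 336, 252 and 210.0 CPM at 20 h (-1.71 ± 0.26) and Srgn, the proteoglycan serglycin of secretory granules, at 1491, 1485 and 1340.4 CPM at 4 h and 517, 533 and 658 CPM at 20 h (-1.34 ± 0.13, adjusted p = 2.9e-12). Zc3h12a, the nuclease Regnase-1, was the 1 of 8 mRNA decay factors that was called, at 28.3, 24.5 and 34.1 CPM at 4 h and 13.3, 8.68 and 12.0 CPM at 20 h (-1.36 ± 0.21). Lbp, encoding a lipopolysaccharide-binding protein, was called (-5.14 ± 1.24, adjusted p = 0.02) while Lat-/- 4 h replicate 3 held 1.14 CPM against 43.1 and 24.4 CPM in the other 4 h libraries, and its call was lost without Lat-/- 20 h replicates 1, 2 or 3 or Lat-/- 4 h replicate 1 (adjusted p up to 0.107).

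Heat shock and chaperone genes also fell, and here the 4 h libraries were unlike one another. Of 22 genes 10 were lower and none was higher (4 lower and 1 higher in WT cells). Hspa1a, an inducible HSP70 gene, stood at 471, 212 and 3.95 CPM at 4 h and 0.0506, 0.148 and 0 CPM at 20 h, the 20 h values resting on 1, 4 and 0 counts, and Hspa1b, its near-identical neighbour, at 794, 338 and 7.60 CPM at 4 h and 0.253, 0.260 and 0.336 CPM at 20 h. How reads were divided between these copies is uncertain. At 4 h replicate 3 held far less of both than the others, and for Hspa1a and Hspa1b it was still above all 20 h libraries. Hsph1, encoding HSP110, stood at 2808, 1429 and 205 CPM at 4 h and 101, 82.9 and 161 CPM at 20 h (-3.69 ± 0.84, adjusted p = 0.015), and Hspd1, the mitochondrial chaperonin HSP60, at 1219.7, 615 and 125 CPM at 4 h and 105, 74.0 and 157 CPM at 20 h (-2.54 ± 0.61, adjusted p = 0.02). For Hspd1 the third 4 h library lay between the 20 h libraries, so its groups overlapped. Hsp90ab1, an abundant HSP90, went from 11378, 8864 and 2951 CPM at 4 h to 1961, 1610.5 and 2872 CPM at 20 h (-1.85 ± 0.44). WT 4 h replicate 3 was likewise the lowest of its group for Hspa1a (117, 77.6 and 2.87 CPM) and Hsph1 (1310.3, 903 and 569 CPM), and what moved with the replicate number was not tested.

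The call of the group depended on single libraries. Its count of lower genes was 6 without Lat-/- 20 h replicate 1, 4 without replicate 2, 5 without Lat-/- 4 h replicate 1, and 14 at the most, and it was 2 when the 6 Lat-/- libraries were fitted alone. Hspa1a, Hspa1b, Hspb1 and Hsp90aa1 kept their calls without any one library, although Hspa1b, Hspb1 and Hsp90aa1 had adjusted p of 0.094, 0.119 and 0.176 with the Lat-/- libraries alone. Hsph1, Hspd1, Hspe1, Hsp90ab1 and Dnaja1 each lost theirs without Lat-/- 20 h replicate 1, Lat-/- 20 h replicate 2 or Lat-/- 4 h replicate 1, with adjusted p between 0.0715 and 0.19. Hspe1, Hsp90ab1 and Dnaja1 also lost theirs without Lat-/- 4 h replicate 2, and Dnaja1 without Lat-/- 20 h replicate 3 (adjusted p between 0.055 and 0.0826). Hspa5, the chaperone of the endoplasmic reticulum, did not share the pattern: it stood at 785, 714 and 778 CPM at 4 h and 331, 264 and 435 CPM at 20 h, with 4 h replicate 3 in the range of the others (-1.14 ± 0.13, adjusted p = 2.3e-10), and was -0.95 without Lat-/- 20 h replicate 2.

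Hspd1 and Hspe1 lie head to head and share a promoter, and with Hsph1 they were the members, 3 of 18 with a window, that held, on either strand, GAA, TTC and GAA in a row with 2 free bases between them, a core of the element bound by heat shock factor 1. The shared promoter is shown on the strand of Hspe1 (chr1:55088019-55088116, plus strand, GRCm38.p6), since these genes, all called lower, hold the element. It is followed by a short stretch of Hsph1 (chr5:149636280-149636308, minus strand). That stretch lies wholly past the start of the gene, with the element ending 28 bases past it. Capitals mark the element, which in Hspe1 joins 2 overlapping matches.
Hspe1: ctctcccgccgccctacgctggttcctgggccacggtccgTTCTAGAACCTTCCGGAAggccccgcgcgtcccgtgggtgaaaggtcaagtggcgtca
Hsph1: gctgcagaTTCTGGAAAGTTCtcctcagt
The motif occurred in 4 of 390 windows of lower genes (1.03%), in none of the 382 windows of higher genes, in 0.456% of windows of expressed protein-coding genes and in 0.603% of all windows. Those 4 windows repeat the same bases. The windows of Hspd1 and Hspe1 hold their shared promoter, and the others are windows of Hsph1 from alternative starts that hold the same match. In the other gene lists Bst2, Ccnd3 and Rps18 held the motif too, and none of them was called. Hspa1a, Hspa1b, Hspb1 and Hsp90aa1 were not among its holders, and whether each had a window is not given here.

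**Figure D2:**
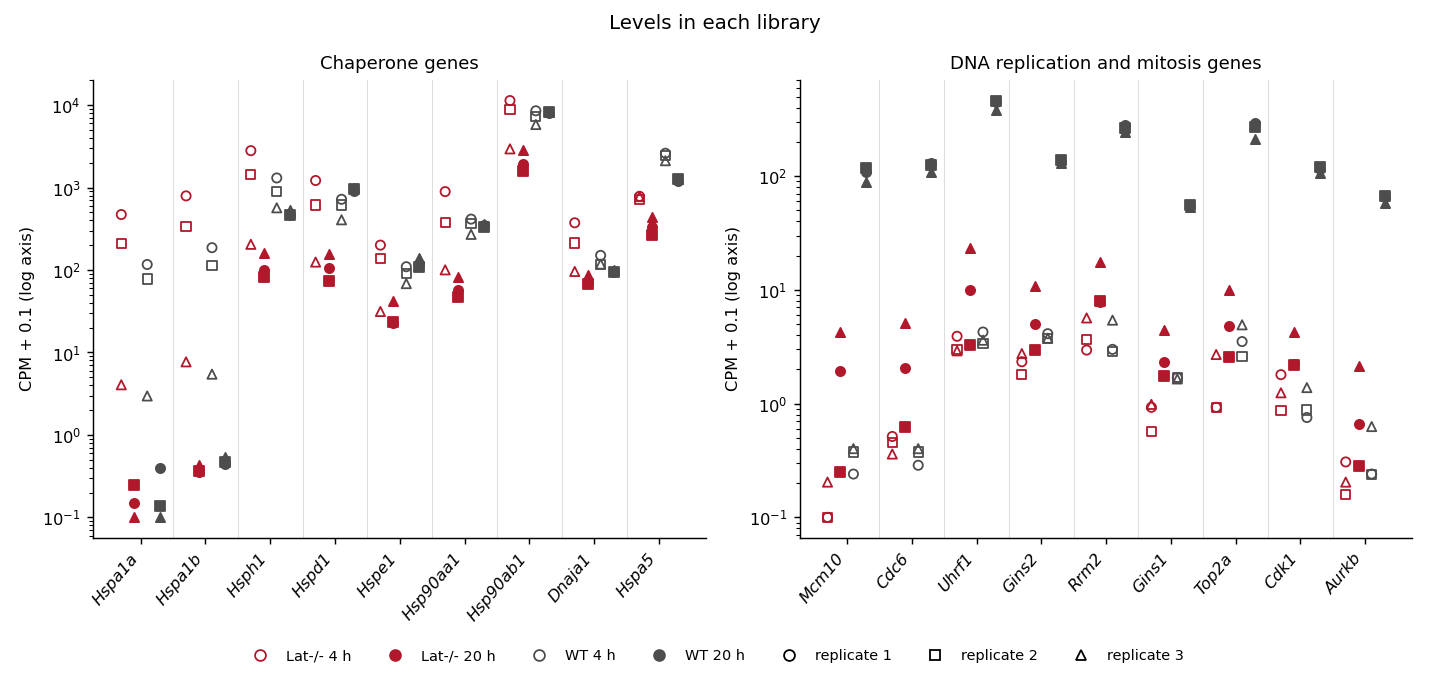
CPM plus 0.1 on a log axis in each library for 9 chaperone genes (left) and 9 DNA replication and mitosis genes (right), with Lat-/- in red, WT in grey, 4 h open, 20 h filled, and the marker shape giving the replicate number. Lat-/- 4 h replicate 3 was the lowest of its group for the chaperones except Hspa5, and Lat-/- 20 h replicate 3 was the highest of its group for the cell division genes, far below all WT 20 h libraries.

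Of the 388 higher protein-coding genes 211 had a 4 h mean more than 2-fold below that at 0 h. For 276 of the 388 the 20 h mean was within 2-fold of 0 h, and for 98 it was more than 2-fold above. Of the 399 lower ones 266 had a 4 h mean more than 2-fold above 0 h, and 269 had a 20 h mean within 2-fold of it. The calls used the same 4 h and 20 h values. Among the genes that rose were regulators of signalling, adhesion and metabolism. Dock2, an activator of RAC that T cells need for migration, was among the most abundant, at 357, 315 and 569.9 CPM at 4 h and 1104, 1132 and 866 CPM at 20 h (1.32 ± 0.23, adjusted p = 0.0015). Its 0 h values were 1001, 1008 and 894 CPM, close to those at 20 h. In WT cells Dock2 was not called (-0.42 ± 0.23), and the change differed (1.74 ± 0.32, adjusted p = 0.0011).

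Several more regulators of small GTPases, of actin and of cAMP signalling also rose. Arhgap15, which encodes a GTPase-activating protein, went from 144, 139 and 212 CPM at 4 h to 373, 422 and 371 CPM at 20 h (1.23 ± 0.22), and Arhgap9 from 212, 219 and 231 CPM at 4 h to 418, 502 and 436 CPM at 20 h (1.03 ± 0.19, and 0.99 without Lat-/- 20 h replicate 2). Evl, an Ena/VASP protein that extends actin filaments, stood at 192, 207 and 224 CPM at 4 h and 482, 428 and 504 CPM at 20 h (1.18 ± 0.22, adjusted p = 0.0023). It was called higher in WT cells as well, and the difference between the genotypes was not called. Prkacb, a catalytic subunit of protein kinase A, stood at 189, 185 and 218 CPM at 4 h and 426, 456 and 383 CPM at 20 h (1.10 ± 0.14, adjusted p = 5.2e-09). In each of these genes the groups were separate. Rapgef4 (chr2:71981240-72257474, plus strand), encoding the cAMP-activated RAP exchange factor EPAC2, rose further, from 14.3, 13.9 and 17.2 CPM to 68.2, 64.7 and 51.7 CPM (2.03 ± 0.28, adjusted p = 0.00011), and every 20 h library exceeded the 0 h libraries (33.1, 26.7 and 34.7 CPM). In WT cells it was lower at 20 h (4.07, 5.64 and 11.0 CPM at 4 h and 1.58, 1.66 and 1.55 CPM at 20 h, -2.12 ± 0.37), and the difference was 4.15 ± 0.46 (adjusted p = 3.5e-06).

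The steepest rises were in genes of low abundance. Ksr2 (chr5:117414000-117775003, plus strand), a scaffold of the RAF-MEK-ERK cascade, went from 0.910, 1.12 and 0.728 CPM at 4 h to 11.5, 10.4 and 9.08 CPM at 20 h, an 11.3-fold rise (3.49 ± 0.33, adjusted p = 3.3e-11), having been at 7.90, 7.46 and 7.48 CPM at 0 h. In WT cells it stood at 0.701, 0.825 and 1.40 CPM at 4 h and 1.03, 0.811 and 0.530 CPM at 20 h and was not called. Sorcs2 (chr5:36017180-36398139, minus strand), a receptor of the sortilin family, rose from 3.35, 2.88 and 5.51 CPM to 23.5, 27.8 and 23.4 CPM (2.67 ± 0.28, adjusted p = 2e-07) against a WT change of -0.52 ± 0.30. The 20 h libraries lay above the 0 h libraries for Ksr2 and below them for Sorcs2 (31.4, 30.8 and 32.7 CPM), and the change differed from WT by 3.82 ± 0.58 and 3.19 ± 0.41. Itga2, the collagen-binding integrin chain, rose from 1.78, 1.64 and 2.29 CPM to 8.80, 11.2 and 7.78 CPM, above its 0 h values of 3.41, 4.43 and 4.43 CPM. Clybl, a mitochondrial lyase, rose from 2.48, 2.70 and 3.69 CPM to 11.4, 16.6 and 13.2 CPM (2.23 ± 0.23) and did so in WT cells as well (2.10 ± 0.24). Fcgrt, the neonatal Fc receptor (2.13 ± 0.32), Abhd15 (2.36 ± 0.27), Ifitm10 (2.22 ± 0.27) and Sec1 (2.29 ± 0.33) rose from between 0.828 and 2.65 CPM at 4 h to between 4.75 and 11.4 CPM at 20 h. Zbtb20, a zinc finger repressor, stood at 15.6, 12.8 and 9.57 CPM at 4 h and 65.0, 61.1 and 23.5 CPM at 20 h, with 20 h replicate 3 well below the other 2, and its call (1.97 ± 0.45, adjusted p = 0.015) was lost without Lat-/- 20 h replicates 1 or 2 or Lat-/- 4 h replicates 2 or 3 (adjusted p up to 0.0582). The call of Gprin3 (2.07 ± 0.48) was lost without Lat-/- 20 h replicate 2 or Lat-/- 4 h replicates 1 or 2 (adjusted p up to 0.0845), and that of Fam120c (1.94 ± 0.46) without Lat-/- 4 h replicate 1 (adjusted p 0.0654).

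Metabolic and antiviral genes added to the higher set. Pdk1, a pyruvate dehydrogenase kinase that limits entry of pyruvate into mitochondria, stood at 320.1, 321 and 403 CPM at 4 h and 796, 808 and 773 CPM at 20 h (1.19 ± 0.27, adjusted p = 0.014, and adjusted p 0.0522 without Lat-/- 4 h replicate 1). Elovl6, a fatty acid elongase, rose from 7.86, 8.10 and 5.93 CPM to 20.2, 19.4 and 17.7 CPM (1.39 ± 0.19, adjusted p = 6e-08), as in WT cells (2.01 ± 0.19). Samhd1, a nucleotide hydrolase that restricts retroviruses, stood at 641, 499 and 720.3 CPM at 4 h and 1956, 788 and 1642 CPM at 20 h (1.24 ± 0.27, and adjusted p 0.186 with the Lat-/- libraries alone). Its 20 h replicate 2 was only just above the highest 4 h library, while the other 20 h libraries were far above it. Samhd1 is induced by interferon, and of 46 interferon-stimulated genes 1 was called in Lat-/- cells, Oasl1, which fell (16.4, 11.7 and 9.26 CPM at 4 h and 3.54, 3.12 and 7.27 CPM at 20 h, -1.43 ± 0.28). A single call among the 46 is near the share of all genes tested (1.71% higher and 1.87% lower). Without Lat-/- 20 h replicate 2, 7 of the 46 were higher. The 46 genes summed to 7615, 4145 and 7372 CPM in 4 h replicates 1 to 3 and to 9655, 3721 and 8208 CPM in 20 h replicates 1 to 3, so that replicate 2 was the lowest at both times.

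Genes of the naive cell program were called in Lat-/- cells at near the share of all genes tested, of which 1.71% were higher and 1.87% lower. Of 28 naive cell and quiescence genes 1 was higher (Evl) and none was lower in Lat-/- cells. In WT cells 15 of the 28 were lower and 2 higher, against 9.00% and 8.57% of all genes tested. For 15 the difference between genotypes was called with the higher value in Lat-/- cells, against 6.20% of all genes tested. Il7r, the receptor for the survival cytokine interleukin 7, stood at 1361, 1659 and 1671 CPM at 4 h and 1862, 2441 and 1867 CPM at 20 h in Lat-/- cells (0.40 ± 0.33, adjusted p = 0.66) and at 309.6, 369.8 and 751 CPM at 4 h and 16.8, 16.4 and 36.5 CPM at 20 h in WT cells (-4.36 ± 0.38), and the difference was 4.76 ± 0.49 (adjusted p = 1.1e-05). Klf2, a factor that keeps T cells resting and recirculating, stood at 816, 1009 and 899 CPM at 4 h and 842, 1029 and 925 CPM at 20 h in Lat-/- cells (0.04 ± 0.35) and fell from 198, 192 and 607 CPM to 46.1, 36.7 and 40.1 CPM in WT cells. S1pr1, which lets T cells leave lymph nodes and is a KLF2 target, stood at 1827, 1999 and 1860.0 CPM at 4 h and 2183, 2654 and 1896 CPM at 20 h. For Il7r and S1pr1 each Lat-/- library at 4 and 20 h was more than 2-fold above the mean of its 0 h libraries (528, 654 and 599 CPM and 751, 757 and 786 CPM).

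Transcripts of the TCR complex and its proximal kinases and adaptors were called in Lat-/- cells at near the share of all genes tested (1.71% higher and 1.87% lower). Of 36 such genes 1 was called, Themis, a TCR signalling modulator needed in thymocytes, at 170.2, 153 and 144 CPM at 4 h and 316, 389 and 306 CPM at 20 h (1.12 ± 0.17, adjusted p = 3.6e-05). In WT cells 15 of the 36 were lower, against 9.00% of all genes tested. The change of 14 differed between genotypes with the higher value in Lat-/- cells, against 6.20% of all genes tested. Cd3e stood at 441, 474 and 451 CPM at 4 h and 463, 471 and 465 CPM at 20 h in Lat-/- cells (0.03 ± 0.12), and at 517, 527 and 518 CPM at 4 h and 245, 245 and 213 CPM at 20 h in WT cells (-1.15 ± 0.13). Lck, the kinase that starts TCR signalling, changed by 0.08 ± 0.12, Zap70 by -0.33 ± 0.13 and Lcp2, which encodes SLP-76, by -0.37 ± 0.12 in Lat-/- cells. Rasgrp1, the exchange factor that diacylglycerol recruits to activate Ras, was just under the fold threshold with 298, 269 and 382 CPM at 4 h and 635, 702 and 533 CPM at 20 h (0.98 ± 0.14), and fell in WT cells (-1.12 ± 0.14).

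Some cell division genes rose from a very low level and stayed far below WT cells. Of 35 DNA replication and G1/S genes 13 were higher at 20 h in Lat-/- cells and none was lower, with a median of 0.54, while 32 were higher in WT cells with a median of 3.98, and for 33 the change was called lower in Lat-/- than in WT cells. Of 25 mitosis genes 5 were higher in Lat-/- cells against 25 in WT cells. Gins1, a subunit of the replicative helicase complex, rose from 0.828, 0.470 and 0.884 CPM to 2.23, 1.63 and 4.33 CPM (1.87 ± 0.35, adjusted p = 5e-05), and WT cells reached 55.4, 55.7 and 53.1 CPM. Uhrf1, which maintains DNA methylation in S phase, stood at 3.81, 2.88 and 2.81 CPM at 4 h and 9.91, 3.19 and 23.2 CPM at 20 h, and Mcm10, a replication initiation factor with 0, 0 and 2 counts at 4 h, at 0, 0 and 0.104 CPM at 4 h and 1.82, 0.148 and 4.12 CPM at 20 h. Cdc6, which loads the helicase, stood at 0.414, 0.352 and 0.260 CPM at 4 h and 1.97, 0.520 and 4.96 CPM at 20 h and at 131, 126 and 109 CPM in WT cells at 20 h. In all 4 genes the highest 20 h library was replicate 3 and the lowest was replicate 2, the order that Lat reads had in the same libraries. Whether the residual Lat transcript, or cells that had kept it, had a part in these values was not tested.

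The count of higher replication genes was 4 without Lat-/- 20 h replicate 3, 4 without Lat-/- 4 h replicate 1 and 6 without Lat-/- 4 h replicate 2, and 6 when the Lat-/- libraries were fitted alone. That of mitosis genes was 0 without Lat-/- 20 h replicate 3, 1 and 2 without Lat-/- 4 h replicates 2 and 1, 3 without Lat-/- 4 h replicate 3, and 9 without Lat-/- 20 h replicate 2. Gins1 kept its call in all 6 leave-outs. Uhrf1 lost it without Lat-/- 20 h replicates 1 or 3 or Lat-/- 4 h replicates 1, 2 or 3 (adjusted p up to 0.116, log2 change 0.99), Cdc6 without Lat-/- 4 h replicates 1, 2 or 3 (adjusted p up to 0.106) and Mcm10 without Lat-/- 4 h replicate 1 (adjusted p 0.0606). Mki67, the proliferation marker, stood at 0.290, 0.176 and 0.104 CPM at 4 h and 0.405, 0.148 and 0.715 CPM at 20 h and was not called (adjusted p = 0.65), while WT cells reached 22.1, 14.7 and 8.13 CPM.

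**Figure D3:**
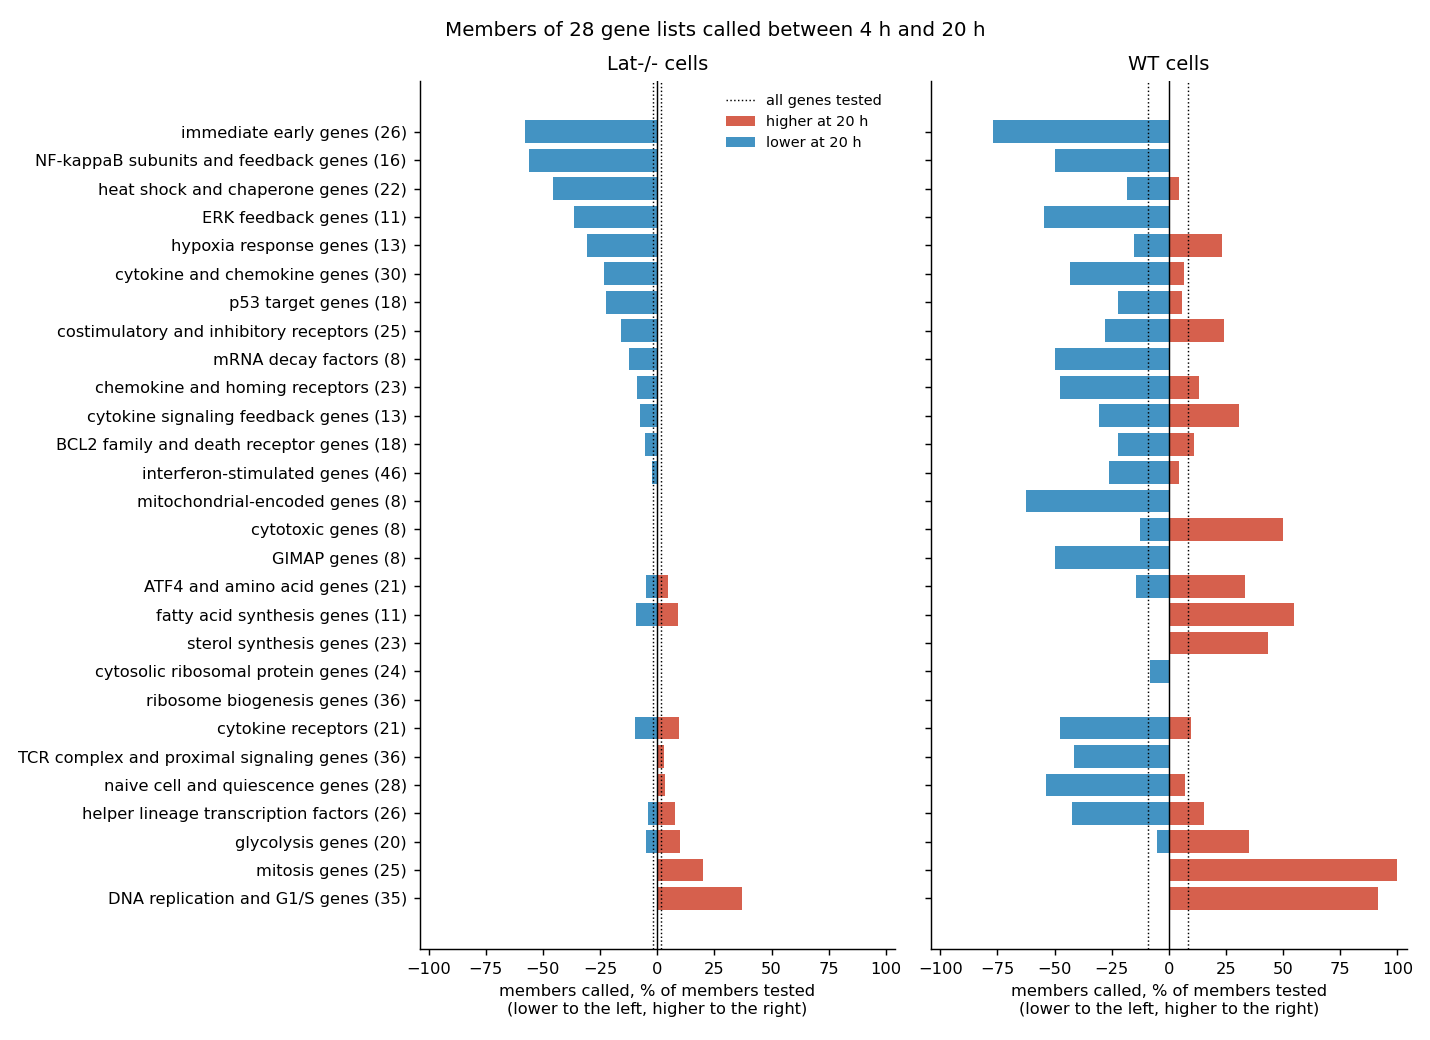
Share of the tested members of 28 gene lists (number tested in brackets) that were called higher (red, to the right) or lower (blue, to the left) at 20 h than at 4 h, in Lat-/- cells and in WT cells, with dotted lines at the share of all genes tested. In Lat-/- cells 15 of 26 immediate early and 9 of 16 NF-kappaB genes were lower, while 13 of 35 DNA replication genes were higher against 32 in WT cells.

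Calls in the remaining lists stand beside 1.71% higher and 1.87% lower among all genes tested in Lat-/- cells, a share at which short lists hold few calls. Of 36 ribosome biogenesis genes, 24 cytosolic ribosomal protein genes, 23 sterol synthesis genes, 8 GIMAP genes, 8 cytotoxic genes and 8 mitochondrial-encoded genes none was called in Lat-/- cells. In WT cells 10 of the sterol genes were higher and 4 of the GIMAP genes were lower, against 8.57% and 9.00% of all genes tested. Of 20 glycolysis genes 2 were higher, Pdk1 and Tpi1, the latter with a call lost without Lat-/- 20 h replicate 3 or Lat-/- 4 h replicates 1 or 2 (adjusted p up to 0.0629, log2 change 0.63), and 1 was lower, the lactate transporter Slc16a3 (-1.63 ± 0.24). Of 13 hypoxia response genes 4 were lower, of which P4ha1 lost its call without Lat-/- 20 h replicates 1 or 2 or Lat-/- 4 h replicate 1 (adjusted p up to 0.106) and Higd1a without Lat-/- 20 h replicates 1 or 2 or Lat-/- 4 h replicates 1 or 2 (adjusted p 0.0849, log2 change -0.64 at the smallest). The others were P4ha2 (-2.18 ± 0.39) and Vegfa, the endothelial growth factor (3.68, 3.93 and 3.12 CPM at 4 h and 0.607, 0.408 and 1.39 CPM at 20 h, -2.16 ± 0.36). Of 11 fatty acid synthesis genes Elovl6 was higher and Scd2, a desaturase, was lower (48.4, 53.6 and 28.8 CPM at 4 h and 19.6, 17.4 and 21.7 CPM at 20 h, -1.16 ± 0.20, and -0.96 without Lat-/- 4 h replicate 2), whereas Scd2 rose in WT cells (2.69 ± 0.21). Of 21 ATF4 and amino acid genes 1 was higher (Trib3) and 1 was lower (Slc7a5, an amino acid transporter chain), and the calls were lost without Lat-/- 20 h replicates 1, 2 or 3 or Lat-/- 4 h replicates 1 or 2 (adjusted p up to 0.181) for Trib3 and without Lat-/- 20 h replicates 1 or 2 or Lat-/- 4 h replicate 1 (log2 change -0.86 at the smallest) for Slc7a5. Of 18 BCL2 family and death receptor genes 1 was lower (Pmaip1). Of 23 chemokine and homing receptors 2 were lower, Ccr8 and Cxcr4, and the call of Cxcr4 was lost without Lat-/- 20 h replicates 1, 2 or 3 or Lat-/- 4 h replicates 1 or 2 (adjusted p up to 0.208, log2 change -0.83). Of 26 helper lineage factors 2 were higher and 1 was lower. Prdm1, encoding Blimp-1, rose from 15.6, 16.6 and 19.2 CPM to 33.7, 41.3 and 28.1 CPM (1.01 ± 0.19, a call lost without Lat-/- 20 h replicate 2 or Lat-/- 4 h replicate 1 (log2 change 0.89 at the smallest)), and Nfil3 was lower (-1.30 ± 0.24). Without Lat-/- 20 h replicate 3, 4 chemokine and homing receptors, 4 helper lineage factors and 3 ribosome biogenesis genes were lower, and without Lat-/- 4 h replicate 2, 6 helper lineage factors were. Without Lat-/- 20 h replicate 1 or Lat-/- 4 h replicate 3, 2 sterol synthesis genes were higher.

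Single markers of other cells were called beside these. Of 9 B cell markers Ighm alone was higher, at 308, 393 and 459 CPM at 4 h and 849, 1024 and 1134 CPM at 20 h (1.37 ± 0.27, adjusted p = 0.0054), as it was in WT cells (1.40 ± 0.27). The other 8 summed to between 0.579 and 1.46 CPM at 4 h and between 1.72 and 1.78 CPM at 20 h, Pax5 and Cd22 had no read in the 6 libraries, and Ms4a1 had none in 5 of them. Of 11 myeloid and dendritic cell markers Itgam alone was higher (0.0414, 0.470 and 0.728 CPM at 4 h and 1.62, 2.78 and 1.39 CPM at 20 h, 2.34 ± 0.47), the list summed to at most 3.38 CPM in any of the 6 libraries, and Cd14 and Siglech were at 0. Of 4 regulatory T cell markers Lrrc32 was lower (11.0, 6.16 and 24.9 CPM at 4 h and 1.72, 0.557 and 2.86 CPM at 20 h, -3.06 ± 0.58, and adjusted p 0.125 with the Lat-/- libraries alone). These 4 summed to between 43.1 and 78.1 CPM at 4 h and between 25.8 and 36.0 CPM at 20 h, and the defining factor Foxp3 stood at 5.88, 4.23 and 12.1 CPM at 4 h and 3.54, 2.30 and 6.01 CPM at 20 h and was not called (adjusted p = 0.18). In these bulk libraries fewer cells of a type and less RNA per cell cannot be told apart.

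Against the same interval in WT cells, which shared no library with it, the Lat-/- cells gave fewer calls. Of the 475 higher genes 169 were also higher in WT cells, which is 35.6% of the Lat-/- and 7.10% of the WT list. Of the 519 lower genes 291 were also lower in WT cells, 56.1% of the Lat-/- and 11.6% of the WT list. Conversely 76 of the 475 higher genes were lower in WT cells and 18 of the 519 lower genes were higher. Over all genes tested 8.57% were higher and 9.00% were lower in WT cells. The test of the difference itself called 1723 genes (6.20%) with a higher and 1472 genes (5.30%) with a lower change in Lat-/- than in WT cells, or 1291 and 1871 genes when scaled by library totals alone. Of the 475 higher genes 228 were among them (168 with the higher change in Lat-/- cells and 60 with the lower), and of the 519 lower genes 150 were (50 and 100). Over 13928 expressed genes the log2 fold changes of the genotypes correlated with Pearson's r of 0.373, a value across genes that are not independent replicates.

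**Figure D4:**
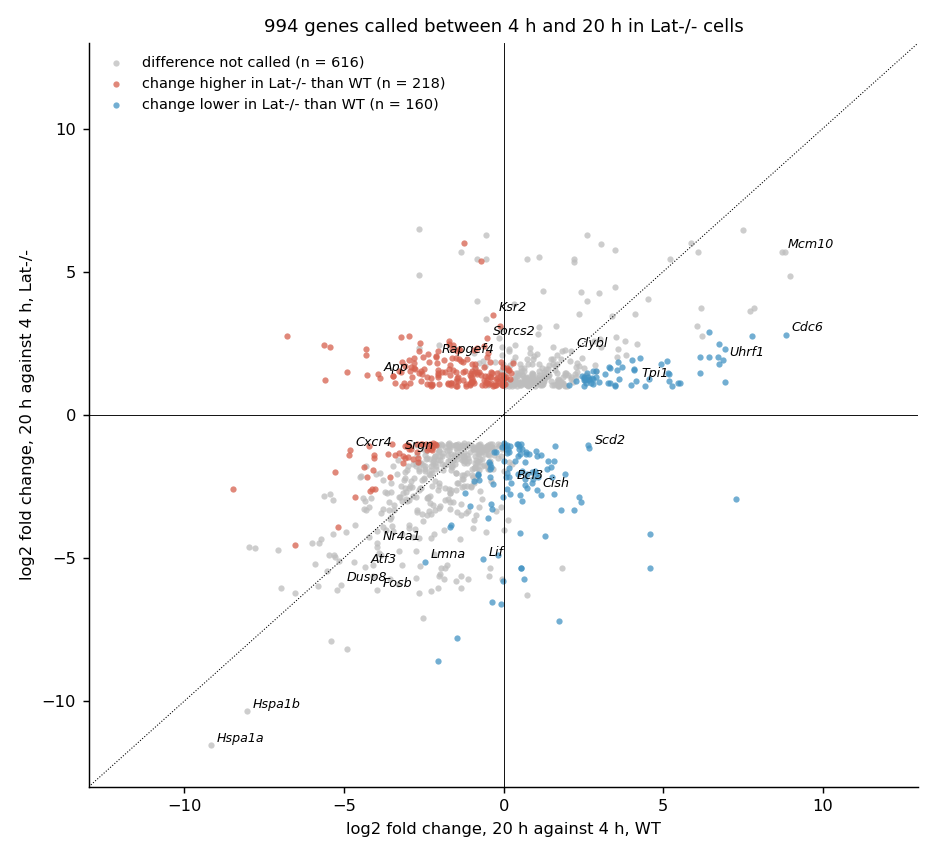
Log2 fold change from 4 h to 20 h in WT cells (horizontal) and Lat-/- cells (vertical) for the 994 genes called in Lat-/- cells, coloured by the test of the difference, with equal change on the dotted line. Of the falls 100 were larger and 50 smaller than in WT cells by the test of the difference, 168 of 475 rises lie in genes whose change was higher in Lat-/- cells, and 60 rises, such as Cdc6, were smaller than in WT cells.

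The genes with the largest differences in opposite directions had distinct courses. App (chr16:84949685-85173766, minus strand), the amyloid precursor protein, stood at 19.3, 18.1 and 30.5 CPM at 4 h and 49.9, 64.2 and 66.4 CPM at 20 h in Lat-/- cells (1.41 ± 0.20) and at 15.7, 14.6 and 18.9 CPM at 4 h and 0.471, 1.11 and 1.63 CPM at 20 h in WT cells (-3.94 ± 0.27). Car2, carbonic anhydrase II, stood at 4.06, 3.70 and 5.31 CPM at 4 h and 9.76, 8.42 and 13.4 CPM at 20 h and at 15.8, 14.6 and 11.9 CPM at 4 h and 0.770, 0.700 and 1.46 CPM at 20 h, and Chil5, a chitinase-like protein, at 3.39, 7.87 and 5.51 CPM at 4 h and 17.6, 22.8 and 18.5 CPM at 20 h and at 4.49, 3.85 and 3.70 CPM at 4 h and 0.471, 0.295 and 0.574 CPM at 20 h, in Lat-/- and WT cells in turn. All 3 were higher at 20 h in Lat-/- cells and lower in WT cells, with differences of 5.35 ± 0.34, 5.13 ± 0.36 and 5.02 ± 0.51. Il7r, Kcnj16, Acoxl and Siah3 were also among the largest differences, without a call in Lat-/- cells. At the other end stood cell division genes that rose in WT cells. Dna2, a replication nuclease, stood at 0.828, 0.117 and 0.364 CPM at 4 h and 1.42, 0.631 and 1.64 CPM at 20 h in Lat-/- cells and at 0.0935, 0.275 and 0.189 CPM at 4 h and 37.5, 33.2 and 30.9 CPM at 20 h in WT cells (-6.14 ± 0.78, adjusted p = 1.7e-09). Cdk1, the mitotic kinase, stood at 1.70, 0.763 and 1.14 CPM at 4 h and 2.12, 2.08 and 4.12 CPM at 20 h in Lat-/- cells and reached 115, 119 and 107 CPM in WT cells (-5.78 ± 0.44), and its rise in Lat-/- cells (1.16 ± 0.30) was lost without Lat-/- 20 h replicate 3 (0.75) or Lat-/- 4 h replicate 2 (0.97).

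**Figure D5:**
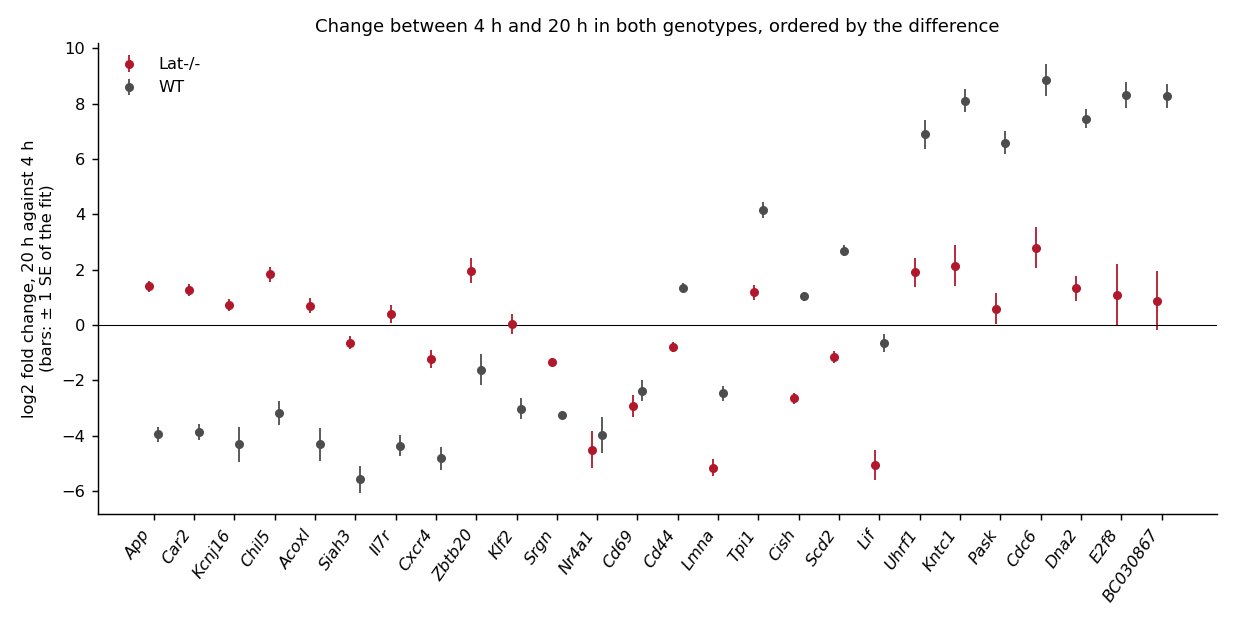
Log2 fold change from 4 h to 20 h in Lat-/- (red) and WT (grey) cells for 26 genes ordered by their difference, with bars of 1 standard error of the fit. App, Car2 and Chil5 rose in Lat-/- and fell in WT cells, Nr4a1 and Cd69 fell in both, Cish and Scd2 fell in Lat-/- and rose in WT cells, and the cell division genes at the right end rose far more in WT cells.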

How the data were processed

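Poly(A)+ RNA of the 18 libraries of the sorted experiment was made into stranded libraries and sequenced. Per the study's methods and the submitters' processing notes, the authors demultiplexed reads with bcl2fastq 2.17.1.14, aligned them to GRCm38 with STAR and counted them per gene with featureCounts. The authors deposited a table of raw counts for 55385 genes, which held no row without a gene and no unused library column. Positions and symbols came from GENCODE M21 (55144 identifiers matched). All 55385 rows were read, and 27780 genes, those with 1 or more reads over the libraries, were tested.

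Counts were fitted in edgeR 4.0.16 (R 4.3.3) with TMM factors, 1 coefficient per genotype and time, and quasi-likelihood tests of the change from 4 h to 20 h in Lat-/- cells, in WT cells, and of the difference between them. The robust form of the newer quasi-likelihood fit was chosen after seeing the data, because the earlier form gave an infinite prior degrees of freedom. A call needed a fold change above 2 and a Benjamini-Hochberg adjusted p under 0.05. CPM are counts scaled by the library's table total times its TMM factor, and a count of 0 allows up to 3 counts. Depth limits cover counting error only. Replicates of a group differed by far more than sampling noise (chi-square per degree of freedom 21.7 to 48.7 over 6 pairs), so no library was a copy of another.

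Members and lists were chosen with earlier results of these data known. Named genes were the 12 per direction with the largest change (protein-coding, mean of at least 100 counts, no overlap), the 8 per direction with the highest CPM, the 6 per direction with the largest difference from WT, up to 3 called members per direction of each of 35 lists, and Lat, Cd69, Cd44, Myc, Egr1, Il2, Ifng, Klf2, Il7r and Mki67. Other genes were chosen after their values were seen, and the values of a few are not reported here. Promoter windows are RefSeq's for GRCm38.p6, 250 bases before to 50 after each start. A gene with several starts has several windows, which can hold the same match and were counted separately. Alternatives were DESeq2 1.42.0, other scaling, filters, fits and thresholds, a replicate block, and leaving out each library.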

Additional observations from a re-analysis of the deposited data

Results flagged for a closer look

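For 50 of the named genes the test of the difference called a change from 4 h to 20 h that was not the same in Lat-/- and WT cells. Each value below is the log2 fold change in Lat-/- cells minus that in WT cells, from edgeR's quasi-likelihood test adjusted over all genes, with 3 libraries per group. No explanation was tested.

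A lower value in Lat-/- cells was found for BC030867 (-7.40), E2f8 (-7.22), Dna2 (-6.14), Cdc6 (-6.06), Pask (-6.00), Kntc1 (-5.96), Cdk1 (-5.78), Uhrf1 (-4.98), Top2a (-4.14) and Mki67 (-3.81). For these 10 genes the rise in WT cells was the larger.

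Genes of activation, cytokine signalling and metabolism with a lower value in Lat-/- cells were Lif (-4.41), Scd2 (-3.85), Cish (-3.69), Il12rb2 (-3.32), Tpi1 (-2.98), Lmna (-2.68), Bcl3 (-2.61), P4ha2 (-2.27), Cd44 (-2.16), Vegfa (-1.72), Dusp5 (-1.37), Slc16a3 (-1.16) and Nfil3 (-1.01). The chaperone genes Hspd1 (-3.27) and Hsp90ab1 (-2.02) also belonged there, with the uneven 4 h libraries described above.

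A higher value in Lat-/- cells was found for Il7r (4.76), Klf2 (3.06), Cxcr4 (3.60), Prdm1 (4.21), Zbtb20 (3.57), Dock2 (1.74), Arhgap15 (1.27), Il10ra (1.69), Srgn (1.93), Itga2 (3.67) and Itgam (3.18).

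It was also found for Trib3 (2.61), Sorcs2 (3.19), Ifitm10 (3.67), Ksr2 (3.82), Sec1 (3.91), Rapgef4 (4.15), Fcgrt (4.49), Siah3 (4.94), Acoxl (5.01), Chil5 (5.02), Kcnj16 (5.03), Car2 (5.13) and App (5.35). For Lat (2.36) the value sets the few reads left in Lat-/- cells against a fall from full expression in WT cells.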

How the results depend on the processing

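Against 475 higher and 519 lower genes in Lat-/- cells, leaving out one library at a time gave 367 to 568 higher and 329 to 610 lower genes. Dropping the fold threshold gave 1171 higher and 1140 lower genes in Lat-/- cells, 3870 and 4255 in WT cells, and 2269 genes with a lower change in Lat-/- than in WT cells. DESeq2 called 517 higher genes, 441 of them shared, and 513 lower, 453 of them shared. The other scaling, filter and fit settings kept these counts within 1.5-fold. Of the values of named genes under all settings, 1444 kept their direction and side of the threshold, 107 lost the call, 21 gained it and 3 changed sign. Those 3 were uncalled. Leaving out one library at a time, the log2 fold change of E2f8 ran from -1.72 (without Lat-/- 20 h replicate 3) to 2.68, that of Pask from -0.26 (without the same library) to 1.08, and that of Klf2 from -0.0013 (without Lat-/- 20 h replicate 2) to 0.16. The cause was not tested. Of the counts of list members 899 stayed within 1.5-fold and 151 did not.

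Replicate numbers were not taken as pairs in the main fit. Same-numbered Lat-/- libraries of the 2 times correlated by 0.0658 to 0.0899 in their deviations from the group means (other pairs -0.0651 to -0.0211). All 6 libraries correlated best with their own number, so same-numbered libraries did share a small part of their deviation. Same-numbered Lat-/- and WT libraries correlated by 0.171 to 0.256 at 0 h, 0.0112 to 0.286 at 4 h and 0.0229 to 0.137 at 20 h, so not every pair was over 0.1. A replicate block gave 487 higher and 494 lower genes in Lat-/- cells, 2339 and 2485 in WT cells, and 1760 and 1477 for the difference.

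With 3 libraries per group and at least 17784644 counts each, genes near the 0.111 to 0.176 CPM that a count of 0 allows have poorly fixed fold changes, and the absence of a call does not show that a gene was steady.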
